A study of Mus musculus with 9 samples.

Results

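The genes described here are 10 members of the interleukin-6 (IL-6) cytokine family and its signalling chain. They are the ligands Il6, Lif, Il11 and Clcf1, the receptor chains Il6st, Il6ra, Lifr and Osmr, the transcription factor Stat3 and its feedback inhibitor Socs3. They were taken by name from a list, and all 10 were found among the 26214 genes of the table of normalized read counts.

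Cytokines of this family act through receptors that share the chain gp130, the product of Il6st. Each ligand first meets a chain of its own or a partner of gp130, the JAK kinases bound to the receptor are then activated, and Stat3 is phosphorylated and moves to the nucleus. Stat3 induces Socs3, whose product binds gp130 and the JAKs and shuts the signal down. In muscle the family is known for its release after injury and for acting on muscle stem cells, and stromal cells of fat are a known source of IL-6.

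The RNA came from stromal progenitors of male C57Bl/6J mice aged 8 to 12 weeks, collected 1 day after an injection into the quadriceps muscle. Glycerol, 50% in saline, damages the fibres of the muscle, and NaCl was the injection without that injury. Fibro-adipogenic progenitors (FAPs) were taken from the quadriceps and adipose stromal cells (ASCs) from the subcutaneous adipose tissue, by removing CD45+ and CD31+ cells and keeping Sca-1+ cells on magnetic beads. The study states triplicates from pooled cells of 3 animals, which does not say whether each library had a pool of its own or the libraries of a group shared one. The labels give genotype C57Bl/6, with no altered gene, and Day 1 for every group. ASCs came from mice injected with NaCl (3 libraries). FAPs came from mice injected with NaCl (2 libraries, the only ones so labelled), and FAPs of mice injected with glycerol are called injured FAPs (3 libraries). Whether the study left out a further FAP library is not stated in the sources used here. A CD31+CD45+ fraction of quadriceps injected with glycerol had 1 library and entered no test. Libraries of a group may thus share animals, and the p-values below measure only the spread between these libraries, not that between animals.

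The ASC libraries held 27481573, 27349184 and 27402102 reads on genes. For FAPs the totals were 24052508 and 24164447, and for injured FAPs 26968235, 26698572 and 27028114. The CD31+CD45+ library was shallower, with 13091077 reads. Every value is a count of reads divided by the library's size factor, and it is called a normalized read count here. With these depths, 3 reads corresponded to values from 2.29 in injured FAP replicate 3 to 4.71 in the CD31+CD45+ library, and all 10 members lay above that in every library.

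The labelled cell types were checked against markers. The summed level of 10 mesenchymal progenitor markers was 3191730, 2889520 and 3353160 in ASCs, 1597060 and 1732570 in FAPs and 697591, 755579 and 680805 in injured FAPs, against 64721 in the CD31+CD45+ library. None of the 10 was at 0 in any library, and Col1a1 was the most abundant except in injured FAP replicate 3, where it was Col3a1. Pdgfra, the surface marker of FAPs, was at 10837, 15083 and 13043 in ASCs, at 17754 and 17756 in FAPs, at 23649, 25268 and 23236 in injured FAPs and at 119 in the CD31+CD45+ library. Most of the 10 had another order, since in the fit described below 1 (Ly6a) was higher and 7 were lower in injured FAPs against FAPs, beside 24.9% and 27.7% of all genes. For ASCs against FAPs 7 were higher and 0 lower, beside 23.4% and 23.8%, and for injured FAPs against ASCs 1 (Pdgfra) was higher and 9 were lower, beside 25% and 25.8%. The sorted groups thus all carried the markers of their label, at levels that differed between them. Not every marker set them apart from the CD31+CD45+ library. Ly6a (Sca-1) was at 17672 there, above both FAP libraries, at 16542 and 10823. Cd34 was at 17085 there, above the injured FAP libraries, at 11933, 10736 and 11553. The other markers of the list were lower there than in every tested library. Of 15 leukocyte markers, 11 were at 0 in each FAP library, Ptprc (CD45) among them, and Pecam1 (CD31) was at 195 and 0 in the FAP libraries.

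Markers of other cells were also present, and their levels differed between groups. Leukocyte markers summed to 544, 471 and 436 in ASCs, 292 and 546 in FAPs and 796, 3569 and 697 in injured FAPs, and to 35208 in the CD31+CD45+ library. Injured FAP replicate 2 stood above the other injured libraries, with Lyz2, a myeloid gene, as its most abundant leukocyte marker. The 14 endothelial markers summed to 6679, 5276 and 7044, then 7727 and 5177, then 2176, 2395 and 1867 in the same order, and to 413538 in the CD31+CD45+ library. Tek was the most abundant of them in ASCs and FAPs and Cdh5 in the other libraries, and Emcn, Cldn5 and Vwf were at 0 in both FAP libraries. The ASC sums were mostly Tek, at 5986, 4841 and 6700. Most of the list had another order, since 9 of 13 tested were higher and 1 (Tek) was lower in injured FAPs against ASCs. For all genes the shares were 25% and 25.8%. Some of the 13 passed the filter on low values only through injured FAPs, so this count favours them. The 8 smooth muscle and pericyte markers summed to 5657, 3729 and 4665 in ASCs, 24229.7 and 21306 in FAPs, 10526, 10200.4 and 10664 in injured FAPs and 84322 in the CD31+CD45+ library. Among the tested groups this sum was highest in FAPs and lowest in ASCs, which did not hold for each gene, since the group mean of Abcc9 was highest in ASCs and that of Cspg4 in injured FAPs.

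**Figure D1:**
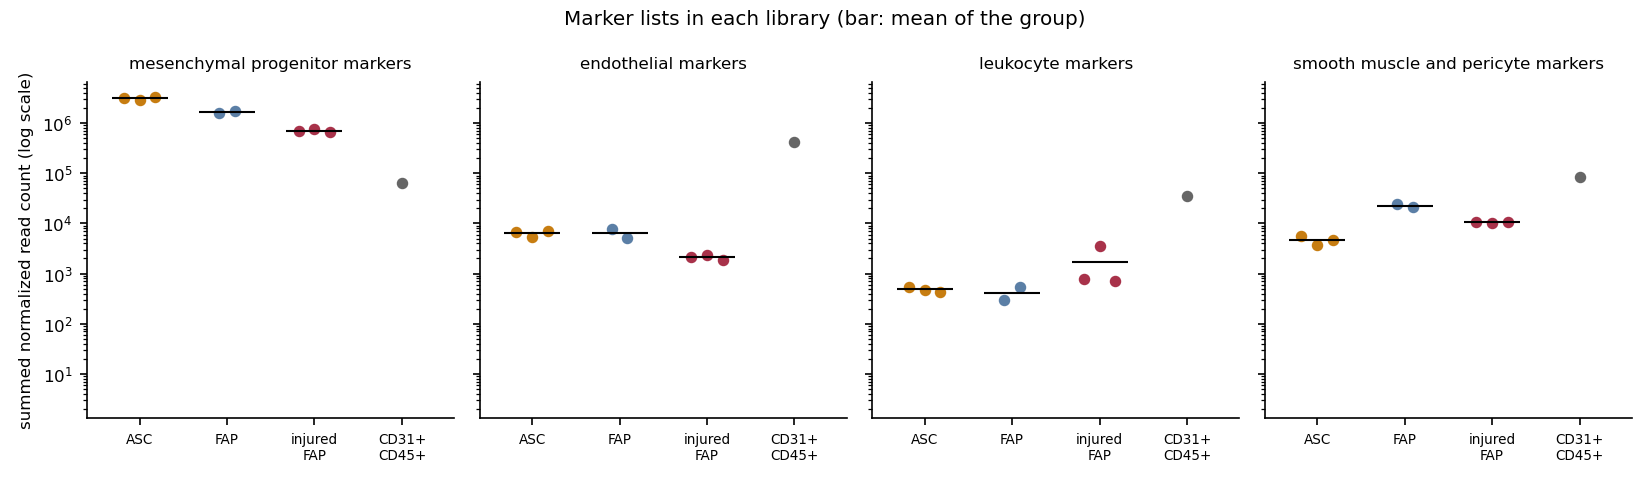
Summed normalized read counts of 4 marker lists in each library, on a log axis, with a point per library and a bar at the group mean. The mesenchymal list lies at 680805 or more in every ASC, FAP and injured FAP library, and the endothelial list reaches 413538 in the CD31+CD45+ library.

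Smaller lists were at low levels. The 6 satellite cell markers summed to 9.22, 10.2 and 3.77 in ASCs, 292 and 421 in FAPs and 277, 213 and 231 in injured FAPs, and to 862 in the CD31+CD45+ library. Muscle fibre markers, 8 genes, reached 159, 117 and 161 in ASCs, 801 and 942 in FAPs, 289.5, 293 and 233 in injured FAPs and 3396 in the CD31+CD45+ library. The 6 Schwann cell markers were at 1242, 959 and 909, at 1089 and 1893, at 718, 444 and 733 and at 11604 in that order of groups. Adipocyte markers, 6 genes, gave 141, 105 and 121 in ASCs, 183 and 188 in FAPs, 24.32, 29.4 and 32.0 in injured FAPs and 433 in the CD31+CD45+ library. The sums of the latter 3 groups were mostly Slc2a4, with a mean of 167 in FAPs and a value of 419 in the CD31+CD45+ library. Adipoq and Plin1 had another order, with means of 42.2 and 47.1 in ASCs and 4.71 and 9.46 in FAPs. In the CD31+CD45+ library they were at 4.71 and 1.57. In the ASC, FAP and injured FAP libraries all of these sums were small beside the mesenchymal list, and the part of any of these cells in the results was not tested.

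Each member was compared between the groups with limma on log2(value + 1), in a single fit of 13601 genes, with adjusted p-values. Means are given ± SD over the libraries of a group, with n = 3 for ASCs and for injured FAPs and n = 2 for FAPs. A gene is said here to have risen or fallen where the adjusted p was under 0.05 and the log2 fold change was beyond 0.58 in size. The comparison of injured FAPs with FAPs asks what glycerol injury changed within a day. ASCs against FAPs compares progenitors of fat with those of muscle without injury, and injured FAPs against ASCs sets the injured muscle beside fat. The tissues were also digested differently, fat with a collagenase and DNAse, and muscle with another collagenase, dispase and passage through a syringe. In both comparisons with ASCs the tissue and its digestion cannot be told apart. Of the 13601 genes, 52.6% were called in injured FAPs against FAPs (24.9% higher and 27.7% lower), while for ASCs against FAPs the share was 47.2% (23.4% and 23.8%), and for the remaining comparison it was 50.8% (25% and 25.8%). The counts of called genes below stand beside these shares. The comparisons share their libraries with one another, so their results are given side by side and are not independent.

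Il6, which encodes the founding ligand of the family, lies in GRCm38 on chromosome 5 from 30013114 to 30019981 on the plus strand. Its normalized read count was 20777, 19198 and 14928 in the ASC libraries, 1000.3 and 652 in the FAP libraries, 11522, 10246 and 13258 in the injured FAP libraries and 504 in the CD31+CD45+ library. Every ASC and every injured FAP library was far above both FAP libraries, no groups overlapped, and the CD31+CD45+ library was lower than any of them. The mean was 11676 ± 1512 in injured FAPs and 826 ± 246 in FAPs, a rise of 14.1-fold (log2 fold change 3.84, SE 0.197, adjusted p = 3.63e-07). In ASCs the mean was 18301 ± 3026, or 22.2-fold that of FAPs (log2 fold change 4.49, SE 0.197, adjusted p = 9.94e-08). In samples of bulk RNA such as these, fewer cells of a type and less RNA per cell cannot be told apart.

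Between injured FAPs and ASCs, Il6 was 1.57-fold higher in ASCs (log2 fold change -0.64, SE 0.176, adjusted p = 0.00819). This difference was small beside the other 2 and depended on the scaling, as the sign turned to 0.05 with quantile normalization and to 0.06 with libraries scaled to equal read totals. It also no longer passed with a common 75th percentile (-0.53), with edgeR (-0.56), without ASC replicate 1 (-0.54, adjusted p = 0.0201) or without injured FAP replicate 2 (-0.55, adjusted p = 0.0370). ASCs and injured FAPs thus held Il6 at a similar order of magnitude, far above FAPs.

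Lif, the ligand of the receptor made of Lifr and gp130, lies on chromosome 11 from 4257557 to 4272514 on the plus strand. It was at 3632, 2290.1 and 1444 in ASCs, 596 and 779 in FAPs, 6727, 6687 and 7254 in injured FAPs and 31.4 in the CD31+CD45+ library. Injured FAPs were highest and close to each other, ASCs were intermediate with a wide spread, FAPs were lowest of the tested groups, and none of these groups overlapped. Lif rose 10.02-fold from 688 ± 129 in FAPs to 6889 ± 317 in injured FAPs (log2 fold change 3.33, SE 0.294, adjusted p = 6.03e-06). ASCs, at 2455 ± 1103, were 3.57-fold above FAPs (log2 fold change 1.75, SE 0.294, adjusted p = 0.000542). Injured FAPs exceeded ASCs 2.81-fold (log2 fold change 1.59, SE 0.263, adjusted p = 0.000365).

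Il11, a ligand that uses Il11ra1 with gp130, lies on chromosome 7 from 4772373 to 4782859 on the minus strand. Its counts were 519, 271 and 223 in ASCs, 54.2 and 65.9 in FAPs, 262, 367 and 455 in injured FAPs and 12.6 in the CD31+CD45+ library. Both FAP libraries were below every ASC and injured FAP library, and the latter groups overlapped. From 60.0 ± 8.24 in FAPs, the mean was 6.02-fold higher in injured FAPs, at 361 ± 96.4 (log2 fold change 2.54, SE 0.335, adjusted p = 8.90e-05). It was 5.63-fold higher in ASCs, at 338 ± 159 (log2 fold change 2.38, SE 0.335, adjusted p = 0.000169). Injured FAPs and ASCs differed by 0.16 on the log2 scale, with a 95% interval of -0.51 to 0.83 and an adjusted p of 0.660. That small value changed sign when ASC replicate 3 (-0.09) or injured FAP replicate 3 (-0.03) was left out. With equal read totals Il11 was called higher in injured FAPs than in ASCs (0.85, adjusted p = 0.0183).

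Clcf1, a ligand that binds the receptor chain Cntfr, lies on chromosome 19 from 4214238 to 4223490 on the plus strand. In the annotation 311 of its exon bases, 8.17%, are shared with AC109138.7 on the same strand. The counts were 71.1, 73.6 and 30.1 in ASCs, 293 and 380.1 in FAPs, 872, 809.9 and 890.1 in injured FAPs and 163 in the CD31+CD45+ library. The order of the groups differed from that of the other ligands, with ASCs lowest, FAPs next and injured FAPs highest, and no overlap. The rise from 336 ± 61.7 in FAPs to 857 ± 42.0 in injured FAPs was 2.55-fold (log2 fold change 1.36, SE 0.326, adjusted p = 0.00415). FAPs were 5.77-fold above ASCs, which stood at 58.3 ± 24.4 (log2 fold change -2.60, SE 0.326, adjusted p = 7.76e-05). Injured FAPs exceeded ASCs 14.7-fold (log2 fold change 3.96, SE 0.292, adjusted p = 1.19e-06).

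**Figure D2:**
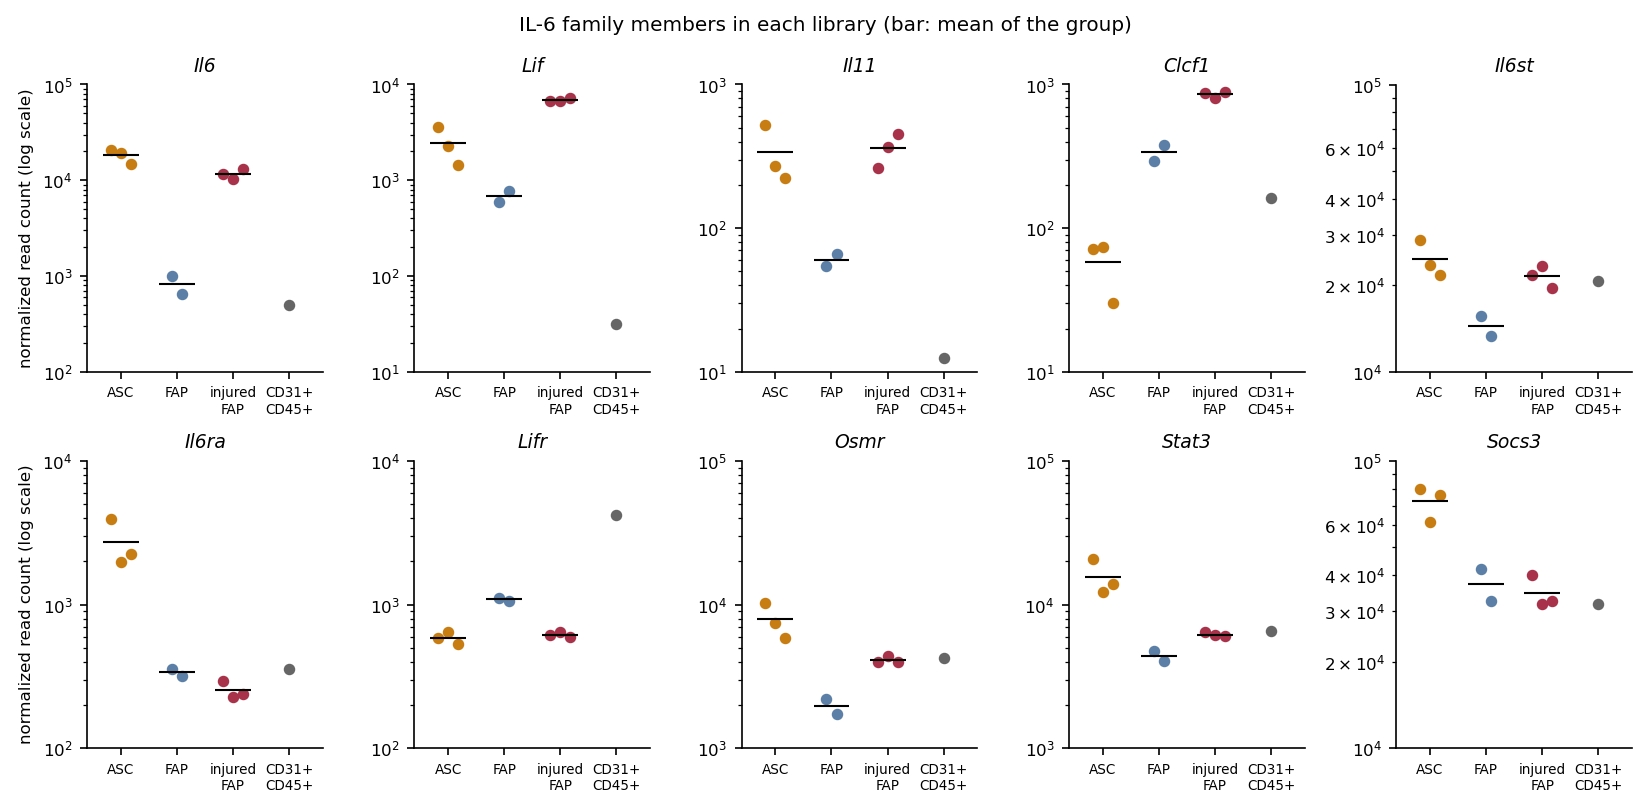
Normalized read count of each of the 10 members on a log axis, with a point per library and a bar at the group mean. Il6 is at most 1000.3 in the FAP libraries and at least 10246 in the ASC and injured FAP libraries, while Lifr is at 4184 in the CD31+CD45+ library.

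The promoters of Il6 and Lif are shown because these ligands had the largest rises among the members in injured FAPs, and that of Socs3 because it is the feedback gene. RefSeq windows of GRCm38.p6 were found for 9 of the 10 members, 11 windows in all, and the set of windows used held none for Clcf1. The 250 bases before each start were searched on both strands for TGANTCA (AP-1), GGGNNTTTC (NF-kB), TTGCNNAA (C/EBP) and TTCNNNGAA (STAT). Of 32851 such windows, 6.75% held the AP-1 letters, 3.72% NF-kB, 9.56% C/EBP and 7.02% STAT. Capitals mark the matches, each of which is a description of letters and no evidence of binding. The Il6 window, chr5:30012864-30013113 on the plus strand, held an AP-1 match whose first base is 249 bases before the start, a C/EBP match at 128 and an NF-kB match at 44. The Lif window, chr11:4257318-4257556 on the plus strand, held an AP-1 match at 228, and 11 bases next to the start are not shown. The Socs3 window, chr11:117969367-117969616 on the minus strand, held a STAT match at 154. It lies inside the longer gene model of GENCODE, with 77 bases in annotated exon of that gene. Of the other members' windows, 1 of Il11 held an AP-1 match, at 98.
Il6 promoter: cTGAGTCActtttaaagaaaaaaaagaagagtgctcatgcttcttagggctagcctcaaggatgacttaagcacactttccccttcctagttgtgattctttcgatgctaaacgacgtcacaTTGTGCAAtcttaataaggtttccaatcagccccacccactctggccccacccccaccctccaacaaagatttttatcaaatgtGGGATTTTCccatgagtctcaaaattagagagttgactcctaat
Lif promoter: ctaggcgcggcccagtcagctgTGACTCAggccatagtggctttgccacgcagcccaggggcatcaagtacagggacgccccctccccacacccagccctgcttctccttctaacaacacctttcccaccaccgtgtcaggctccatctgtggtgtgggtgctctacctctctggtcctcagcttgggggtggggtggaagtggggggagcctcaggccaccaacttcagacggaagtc
Socs3 promoter: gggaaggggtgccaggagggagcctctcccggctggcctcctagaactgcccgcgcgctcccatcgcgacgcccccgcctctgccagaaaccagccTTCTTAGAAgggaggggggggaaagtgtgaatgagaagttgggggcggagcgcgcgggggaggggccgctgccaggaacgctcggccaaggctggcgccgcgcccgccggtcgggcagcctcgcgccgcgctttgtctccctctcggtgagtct

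Among 7 other ligand genes of the family, 2 were high enough to be tested. Osm, the ligand of Osmr and mainly a product of leukocytes, was at 1.32, 1.13 and 1.26 in ASCs, at 0 in both FAP libraries and at 4.71, 70.5 and 6.86 in injured FAPs. A 0 in the FAP libraries allows values of up to 2.85 and 2.82, so the ASC values cannot be told from it. The CD31+CD45+ library had the highest value, 149, and injured FAP replicate 2 stood apart from the other injured libraries. In that library leukocyte markers also had their highest sum among the tested libraries, 3569, and their part in the Osm value was not tested. Osm passed the filter on low values only through its injured FAP values, so no test of it is read here.

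Ctf1, which encodes cardiotrophin, was at 7.90, 3.398 and 8.79 in ASCs, 25.7 and 37.6 in FAPs and 10.2, 16.3 and 16.0 in injured FAPs. Its level in ASCs was under the minimum mean of 10, which it passed through its values in FAPs and injured FAPs. No test of it against ASCs is therefore read here. It did not pass in injured FAPs against FAPs (log2 fold change -1.11, adjusted p = 0.0619) but was called lower with a pseudocount of 8 (-0.84), a common 75th percentile (-1.20), edgeR (-1.11), only the compared groups (adjusted p = 0.0160) and without ASC replicate 2 (adjusted p = 0.0290). The call between injured FAPs and ASCs also depended on the setting and is not read. Cntf, Ctf2, Il27, Ebi3 and Il31 were too low to test, and Ebi3 had its highest value, 95.7, in the CD31+CD45+ library.

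Il6st encodes gp130, the chain that receptors of the family share, and lies on chromosome 13 from 112464070 to 112510086 on the plus strand. Its counts were 28791, 23446 and 21705 in ASCs, 15622 and 13275 in FAPs, 21657, 23322 and 19600.2 in injured FAPs and 20727 in the CD31+CD45+ library. It was abundant in every library, FAPs were below the other groups without overlap, and ASCs and injured FAPs overlapped. The means were 24648 ± 3692 in ASCs, 14448 ± 1660.1 in FAPs and 21526 ± 1864 in injured FAPs. ASCs were 1.71-fold above FAPs (log2 fold change 0.76, SE 0.147, adjusted p = 0.00123). This difference was not kept when the libraries were scaled otherwise, since it was 0.56 with a common 75th percentile, 0.20 with equal read totals and -0.00 with quantile normalization.

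Against FAPs, Il6st in injured FAPs differed by 1.49-fold, and the log2 fold change of 0.58 (95% interval 0.25 to 0.90, adjusted p = 0.00574) lay just under the size required. With several alternatives it passed, among them 0.71 with equal read totals, 0.69 without FAP replicate 1 and 0.64 without injured FAP replicate 3. Between injured FAPs and ASCs the value was -0.19 (-0.48 to 0.10, adjusted p = 0.227), and it turned to 0.62 with quantile normalization and 0.51 with equal read totals.

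Il6ra encodes the chain that binds IL-6 itself and lies on chromosome 3 from 89864059 to 89913196 on the minus strand, where 242 of its exon bases, 2.80%, overlap Gm42809 on the opposite strand. It was at 3974, 1979 and 2249.6 in ASCs, 358 and 317 in FAPs, 295, 227 and 240.3 in injured FAPs and 359 in the CD31+CD45+ library. ASCs stood far above all other libraries, and injured FAPs were the lowest, below both FAP libraries. ASCs, at 2734 ± 1083, were 8.10-fold above FAPs, at 338 ± 29.3 (log2 fold change 2.95, SE 0.253, adjusted p = 6.01e-06). They were 10.8-fold above injured FAPs, at 254 ± 36.0 (log2 fold change -3.36, SE 0.227, adjusted p = 6.63e-07). Injured FAPs against FAPs gave -0.42 on the log2 scale (95% interval -0.98 to 0.15, adjusted p = 0.171), which did not pass. The ligand Il6 rose in injured FAPs, while a rise of its own receptor chain was not found.

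Lifr encodes the chain that binds LIF and lies on chromosome 15 from 7090614 to 7197489 on the plus strand. The counts were 585, 644 and 531 in ASCs, 1115 and 1060.3 in FAPs, 611, 640.1 and 599 in injured FAPs and 4184 in the CD31+CD45+ library. FAPs were the highest of the tested groups, ASCs and injured FAPs overlapped below them, and the CD31+CD45+ library stood above all others. FAPs, at 1088 ± 39.0, were 1.76-fold above injured FAPs, at 617 ± 20.9 (log2 fold change -0.82, SE 0.114, adjusted p = 0.000126). They were 1.85-fold above ASCs, at 587 ± 56.7 (log2 fold change -0.89, SE 0.114, adjusted p = 8.54e-05). Injured FAPs against ASCs gave 0.08 (95% interval -0.15 to 0.30, adjusted p = 0.527), and 0.77 with equal read totals (adjusted p = 0.000208). Lifr thus fell in injured FAPs while its ligand Lif rose.

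Pericyte, endothelial and leukocyte markers all had their highest sums in the CD31+CD45+ library, as Lifr did. So did satellite cell, muscle fibre and Schwann cell markers. The sum of adipocyte markers was also highest there, but it was mostly Slc2a4, at 419. Of the 8 pericyte markers, 0 were higher and 7 lower in injured FAPs against FAPs, beside 24.9% and 27.7% of all genes, and likewise 0 and 7 in ASCs against FAPs, beside 23.4% and 23.8%. Endothelial markers, 13 tested, gave 2 higher and 7 lower in the former comparison and 3 higher and 9 lower in the latter, and leukocyte markers, 12 tested, gave 9 higher and 0 lower and then 6 and 0. Some endothelial and leukocyte markers passed the filter on low values only through injured FAPs, so these counts favour such genes and support no claim here. The part of such cells in the Lifr difference was not tested.

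Osmr encodes the chain that pairs with gp130 to bind oncostatin M and lies on chromosome 15 from 6813577 to 6874969 on the minus strand, 215644 bases from Lifr. Its counts were 10328, 7463 and 5861 in ASCs, 2217 and 1732 in FAPs, 4016, 4362 and 3959 in injured FAPs and 4272 in the CD31+CD45+ library. ASCs were highest, injured FAPs intermediate and FAPs lowest, without overlap. Osmr rose 2.08-fold from 1975 ± 343 in FAPs to 4113 ± 218 in injured FAPs (log2 fold change 1.07, SE 0.201, adjusted p = 0.000952). In ASCs it was at 7884 ± 2263, 3.99-fold above FAPs (log2 fold change 1.97, SE 0.201, adjusted p = 1.91e-05). Injured FAPs were below ASCs (log2 fold change -0.90, SE 0.1802, adjusted p = 0.00127), and this difference no longer passed with quantile normalization (-0.48) or equal read totals (-0.20).

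Against FAPs, the neighbours Osmr and Lifr thus moved in opposite directions in both groups, and they did so with each scaling tried. Their ratio within each library needs no scaling between libraries, but it shows only how they changed relative to each other. The log2 ratio of Osmr to Lifr was 4.14, 3.53 and 3.46 in ASCs, 0.99 and 0.71 in FAPs, 2.71, 2.77 and 2.72 in injured FAPs and 0.03 in the CD31+CD45+ library. No groups overlapped, and the injured libraries lay between FAPs and ASCs. The mean difference was 1.89 between injured FAPs and FAPs, a factor of 3.69, and 2.86 between ASCs and FAPs, a factor of 7.27. The exact two-sided permutation p was 0.2 for each of these, the smallest that 3 libraries against 2 can give. Between injured FAPs and ASCs the difference was -0.98, with an exact permutation p of 0.1, the smallest for 3 against 3.

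A like ratio of Il6ra to Il6st compares the chain for IL-6 with the shared chain. In log2 units it was -2.86, -3.57 and -3.27 in ASCs, -5.44 and -5.38 in FAPs, -6.19, -6.68 and -6.34 in injured FAPs and -5.85 in the CD31+CD45+ library. ASCs were highest and injured FAPs lowest, with no overlap. The difference was -0.99 between injured FAPs and FAPs and 2.18 between ASCs and FAPs, each with an exact permutation p of 0.2, and -3.17 between injured FAPs and ASCs, with an exact permutation p of 0.1. As above, the design cannot give a smaller p.

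**Figure D3:**
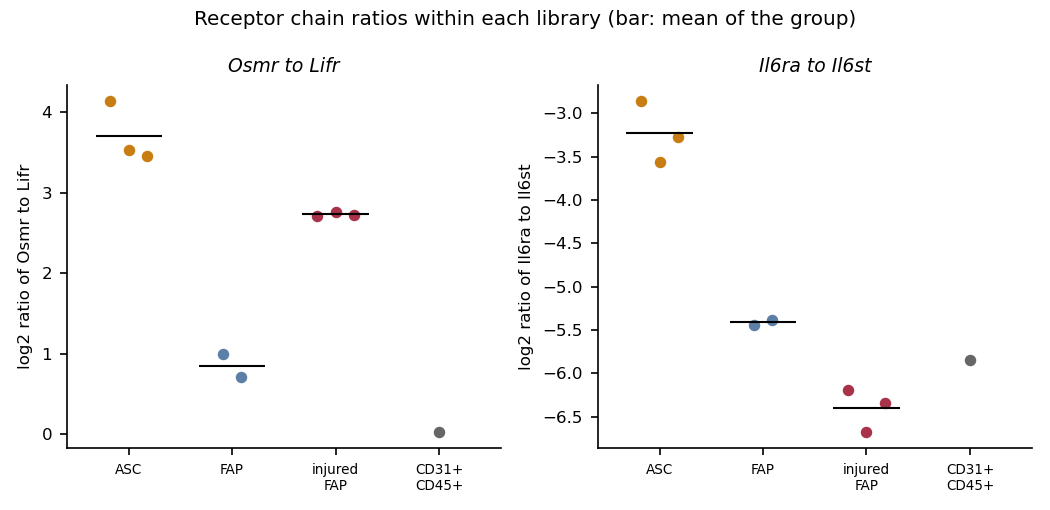
Log2 ratio of the normalized read counts of Osmr to Lifr (left) and of Il6ra to Il6st (right) within each library, with a point per library and a bar at the group mean. The Osmr to Lifr ratio is between 2.71 and 2.77 in injured FAPs and at most 0.99 in FAPs.

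Of 5 further receptor chains, 4 were tested. Il11ra1, the chain for IL-11, was at 7276, 8356 and 6874 in ASCs, 7672 and 7925 in FAPs, 3911, 3556 and 3701 in injured FAPs and 604 in the CD31+CD45+ library. The injured libraries were the lowest of the tested ones, and ASCs and FAPs overlapped. Il11ra1 fell by 1.07 on the log2 scale in injured FAPs (adjusted p = 1.30e-05), while its ligand Il11 rose.

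Cntfr, the chain bound by Clcf1, was at 897, 547 and 854 in ASCs, 2217 and 2719.8 in FAPs, 607, 553 and 425 in injured FAPs and 78.5 in the CD31+CD45+ library. It was highest in FAPs, 4.68-fold above injured FAPs (log2 fold change -2.23, adjusted p = 1.27e-05) and 3.22-fold above ASCs (log2 fold change -1.71, adjusted p = 9.46e-05). Clcf1 therefore rose in injured FAPs while its receptor chain Cntfr fell. Il31ra, which forms a receptor with Osmr, was at 669, 550.4 and 306 in ASCs, 112 and 76.2 in FAPs and 15.7, 13.9 and 19.1 in injured FAPs, so that it was highest in ASCs and lowest in injured FAPs. It fell 5.80-fold in injured FAPs against FAPs (log2 fold change -2.45, adjusted p = 9.40e-05).

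Of the 4 tested chains, 0 rose and 3 fell in injured FAPs against FAPs, beside 24.9% and 27.7% of all genes, with a median log2 fold change of -1.65. In ASCs against FAPs, 1 was higher and 1 lower (median 0.01), beside 23.4% and 23.8% of all genes. In injured FAPs against ASCs 0 were higher and 2 lower (median -0.76), beside 25% and 25.8%. The median of ASCs against FAPs was near 0 and changed sign with each other scaling, to -0.55 with equal read totals, where 1 was higher and 2 lower. That of injured FAPs against ASCs was -0.06 with equal read totals, where 1 was lower.

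Stat3, the transcription factor that carries the signal, lies on chromosome 11 from 100885098 to 100939540 on the minus strand and shares 72 exon bases, 0.756%, with Stat5a on the opposite strand. Its counts were 20679, 12292 and 13882 in ASCs, 4732 and 4035 in FAPs, 6421, 6133 and 6015 in injured FAPs and 6523 in the CD31+CD45+ library. ASCs were highest and FAPs lowest, with no overlap between groups. ASCs, at 15618 ± 4454, were 3.56-fold above FAPs, at 4383 ± 493 (log2 fold change 1.80, SE 0.188, adjusted p = 2.16e-05). They were 2.52-fold above injured FAPs, at 6189.5 ± 209 (log2 fold change -1.30, SE 0.168, adjusted p = 6.45e-05). Injured FAPs were 1.41-fold FAPs, and the log2 fold change of 0.50 (95% interval 0.08 to 0.92, adjusted p = 0.0366) did not reach the size required. It did so with equal read totals, at 0.63.

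Among 9 kinases and other STATs, 8 were tested. Jak1, the kinase most tied to gp130, was at 34598, 25468 and 27877 in ASCs, 5931 and 5281 in FAPs and 9143, 8184 and 8712 in injured FAPs. Jak2, a further kinase of these receptors, was at 4516, 3408 and 3406, at 945 and 882 and at 2388, 2364 and 2718 in the same groups. Both were highest in ASCs and lowest in FAPs, without overlap. Jak1 was 5.23-fold higher in ASCs than in FAPs (log2 fold change 2.38, adjusted p = 4.50e-07), and Jak2 rose 2.72-fold in injured FAPs against FAPs (log2 fold change 1.44, adjusted p = 8.90e-06). The smaller rise of Jak1 in injured FAPs (log2 fold change 0.63, adjusted p = 0.00224) was not called with quantile normalization (0.52), with a common 75th percentile (0.54) or without FAP replicate 2 (0.55).

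Jak3 and Tyk2 moved the other way, with Tyk2 at 314, 574 and 557 in ASCs, 969.9 and 955 in FAPs and 446, 411 and 409 in injured FAPs. Jak3 was at 254, 237 and 177 in ASCs, 398 and 449 in FAPs and 180, 208 and 155 in injured FAPs. Both were highest in the CD31+CD45+ library, Jak3 at 4495 and Tyk2 at 1566. The part of cells of that fraction in these differences was not tested. Of the 8 genes, 3 rose in injured FAPs against FAPs (Jak1, Jak2 and Stat5a) and 2 fell (Jak3 and Tyk2), beside 24.9% and 27.7% of all genes, with a median of -0.07 that was 0.06 with equal read totals. In ASCs against FAPs, 4 were higher and 2 lower, beside 23.4% and 23.8% of all genes. The median was 0.49, and it was -0.08 with equal read totals, where 3 were higher and 3 lower. Between injured FAPs and ASCs, 0 were higher in the former and 5 were lower, beside 25% and 25.8% of all genes, with a median of -0.60. The median turned to 0.10 with equal read totals, where 1 was higher and 1 lower, and 1 was lower with quantile normalization.

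A list of 22 genes known to respond to Stat3 was read beside it. Many of them also answer to other factors, and Jak3 is on the list of kinases too. Timp1, an inhibitor of metalloproteinases, was at 5604, 6301 and 2690.3 in ASCs, 1617 and 1000.1 in FAPs and 19237, 19715 and 19465 in injured FAPs. The injured libraries were highest and close to each other, and Timp1 was 14.9-fold above FAPs (log2 fold change 3.94, adjusted p = 3.36e-06). Pim1, which encodes a kinase, was at 14807, 13503 and 12047 in ASCs, 1450.1 and 1140.2 in FAPs and 4534, 4262 and 4187 in injured FAPs, and Il4ra, a receptor chain for IL-4, at 37247, 17765 and 18854, at 2081 and 2079 and at 7614, 8233 and 7262. For these genes ASCs were highest and FAPs lowest, and Pim1 was 10.4-fold higher in ASCs than in FAPs (log2 fold change 3.38, adjusted p = 4.50e-08).

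Saa3, an acute-phase gene, was at 26.3, 127 and 28.9 in ASCs, 15.2 and 12.2 in FAPs and 359, 863 and 508 in injured FAPs, the largest rise of the list in injured FAPs against FAPs (log2 fold change 5.21, adjusted p = 3.46e-05). Hif1a, which encodes a factor of the response to low oxygen, was at 8381, 6121 and 6317 in ASCs, 2361 and 2218 in FAPs and 8699.9, 10318 and 9345 in injured FAPs (log2 fold change 2.04, adjusted p = 1.49e-06 against FAPs). The genes did not all move alike, since Junb was at 91014, 95219.5 and 99639 in ASCs, 62330.2 and 50441 in FAPs and 35427, 30535 and 31133 in injured FAPs. Junb fell in injured FAPs against FAPs (log2 fold change -0.80, adjusted p = 0.000733), a call that was not made with quantile normalization (-0.30). Vegfa, a growth factor gene for vessels, was at 19739, 10908 and 13243 in ASCs, 2883 and 3294 in FAPs and 3276, 3030.2 and 3347 in injured FAPs, so that FAPs and injured FAPs overlapped far below ASCs.

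Of the 22 genes, 12 rose and 4 fell in injured FAPs against FAPs, beside 24.9% and 27.7% of all genes tested, with a median log2 fold change of 0.70. In ASCs against FAPs, 15 were higher and 3 lower (median 1.56), beside 23.4% and 23.8% of all genes. Beside 25% and 25.8% of all genes, 5 were higher and 13 lower in injured FAPs against ASCs (median -1.04). The medians kept their sign with each other scaling, and with equal read totals the counts became 12 higher and 6 lower in ASCs against FAPs and 7 higher and 9 lower in injured FAPs against ASCs. These counts describe RNA levels of the list, and phosphorylation of Stat3 was not measured.

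Socs3, the feedback inhibitor, lies on chromosome 11 from 117966079 to 117970047 on the minus strand. It was at 80169, 61313 and 76116 in ASCs, 41980.1 and 32438 in FAPs, 40240, 31736 and 32456 in injured FAPs and 31792 in the CD31+CD45+ library. The counts were high in every library, ASCs were above all others, and FAPs and injured FAPs overlapped. The means of FAPs, 37209 ± 6747, and injured FAPs, 34810.5 ± 4716, differed by -0.09 on the log2 scale (95% interval -0.49 to 0.30, adjusted p = 0.662). That value turned to 0.29 with quantile normalization, 0.04 with equal read totals and 0.09 without FAP replicate 1. No rise of Socs3 was thus detected in injured FAPs, while Il6, Lif, Il11 and Clcf1 rose there.

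ASCs, at 72532 ± 9926, were 1.95-fold above FAPs (log2 fold change 0.97, SE 0.177, adjusted p = 0.000942). They were 2.08-fold above injured FAPs (log2 fold change -1.06, SE 0.158, adjusted p = 0.000183). Both differences depended on the scaling. The value against FAPs was 0.17 with quantile normalization and 0.40 with equal read totals, and that of injured FAPs against ASCs was 0.11 and -0.36.

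Other negative regulators did not move as a block. Socs1, a relative of Socs3, was at 5488, 3445 and 4012 in ASCs, 1200 and 1082 in FAPs and 998, 734 and 838 in injured FAPs. Cish, a further gene of that family, was at 3465, 1799 and 2145 in ASCs, 345 and 241 in FAPs and 395, 287 and 309 in injured FAPs. Both were highest in ASCs, 3.78-fold above FAPs for Socs1 (log2 fold change 1.89, adjusted p = 1.57e-05) and 8.43-fold for Cish (log2 fold change 3.04, adjusted p = 6.26e-06), and neither passed in injured FAPs against FAPs. Socs5 had another order, at 664, 889 and 679 in ASCs, 1167 and 1069 in FAPs and 3004, 2954 and 3012 in injured FAPs. It rose 2.67-fold in injured FAPs against FAPs (log2 fold change 1.42, adjusted p = 7.90e-06). Ptpn2, which encodes a phosphatase of JAKs and STATs, was at 1374, 1361 and 1239 in ASCs, 381 and 356 in FAPs and 791, 789 and 892 in injured FAPs, and it also rose (log2 fold change 1.16, adjusted p = 8.94e-06).

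Of the 14 negative regulators, all tested, 3 rose and 2 fell in injured FAPs against FAPs, beside 24.9% and 27.7% of all genes, with a median of -0.09 that was 0.04 with equal read totals. In ASCs against FAPs, 3 were higher and 4 lower, beside 23.4% and 23.8% of all genes. The median was 0.32, and it was -0.25 with equal read totals. In injured FAPs against ASCs, 4 were higher and 5 lower, beside 25% and 25.8% of all genes. The median was -0.30, and it was 0.40 with equal read totals, where 6 were higher and 2 lower. Ptpn6 and Ptprt, which are among the lower genes of ASCs, had means under 10 there and passed the filter through the other groups, so the counts with ASCs favour such genes. With a mean of at least 50, 12 genes were left. Of these, 3 were higher and 2 lower in ASCs against FAPs, and 2 higher and 5 lower in injured FAPs against ASCs.

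The last list holds 4 genes of receptor shedding, a process that releases soluble Il6ra. Adam10, a sheddase, was at 1639, 1517 and 1848 in ASCs, 1278 and 1286 in FAPs and 2234, 2375 and 2382 in injured FAPs, and it rose in injured FAPs against FAPs (log2 fold change 0.86, adjusted p = 4.99e-05). Adam17, the other sheddase, was at 2745, 2733 and 2794 in ASCs, 1994 and 1841 in FAPs and 1902, 1897 and 1889 in injured FAPs. Its log2 fold change was 0.52 in ASCs against FAPs (adjusted p = 0.000469) and -0.54 in injured FAPs against ASCs (adjusted p = 0.000133). Both passed on adjusted p alone but lay under the size required. Without FAP replicate 1 the value of ASCs against FAPs was 0.58, just past that size. Rhbdf2, which brings Adam17 to the cell surface, was at 77.7, 70.2 and 45.2 in ASCs, 412 and 429.9 in FAPs and 159, 189 and 119.7 in injured FAPs, and at 3811 in the CD31+CD45+ library. It was highest in FAPs among the tested groups, 2.70-fold above injured FAPs (log2 fold change -1.45, adjusted p = 0.000695). Of the 4 genes, 1 rose and 2 fell in injured FAPs against FAPs (median -0.46), beside 24.9% and 27.7% of all genes. In ASCs against FAPs 0 were higher and 1 lower (median -0.08), beside 23.4% and 23.8%. In injured FAPs against ASCs 1 was higher and 0 lower (median 0.06), beside 25% and 25.8%. With equal read totals the latter medians were -0.65, with 2 lower, and 0.75, with 2 higher. Rhbdf1 was called lower in ASCs than in FAPs, and Adam10 higher in injured FAPs than in ASCs, with each of the 3 other scalings.

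**Figure D4:**
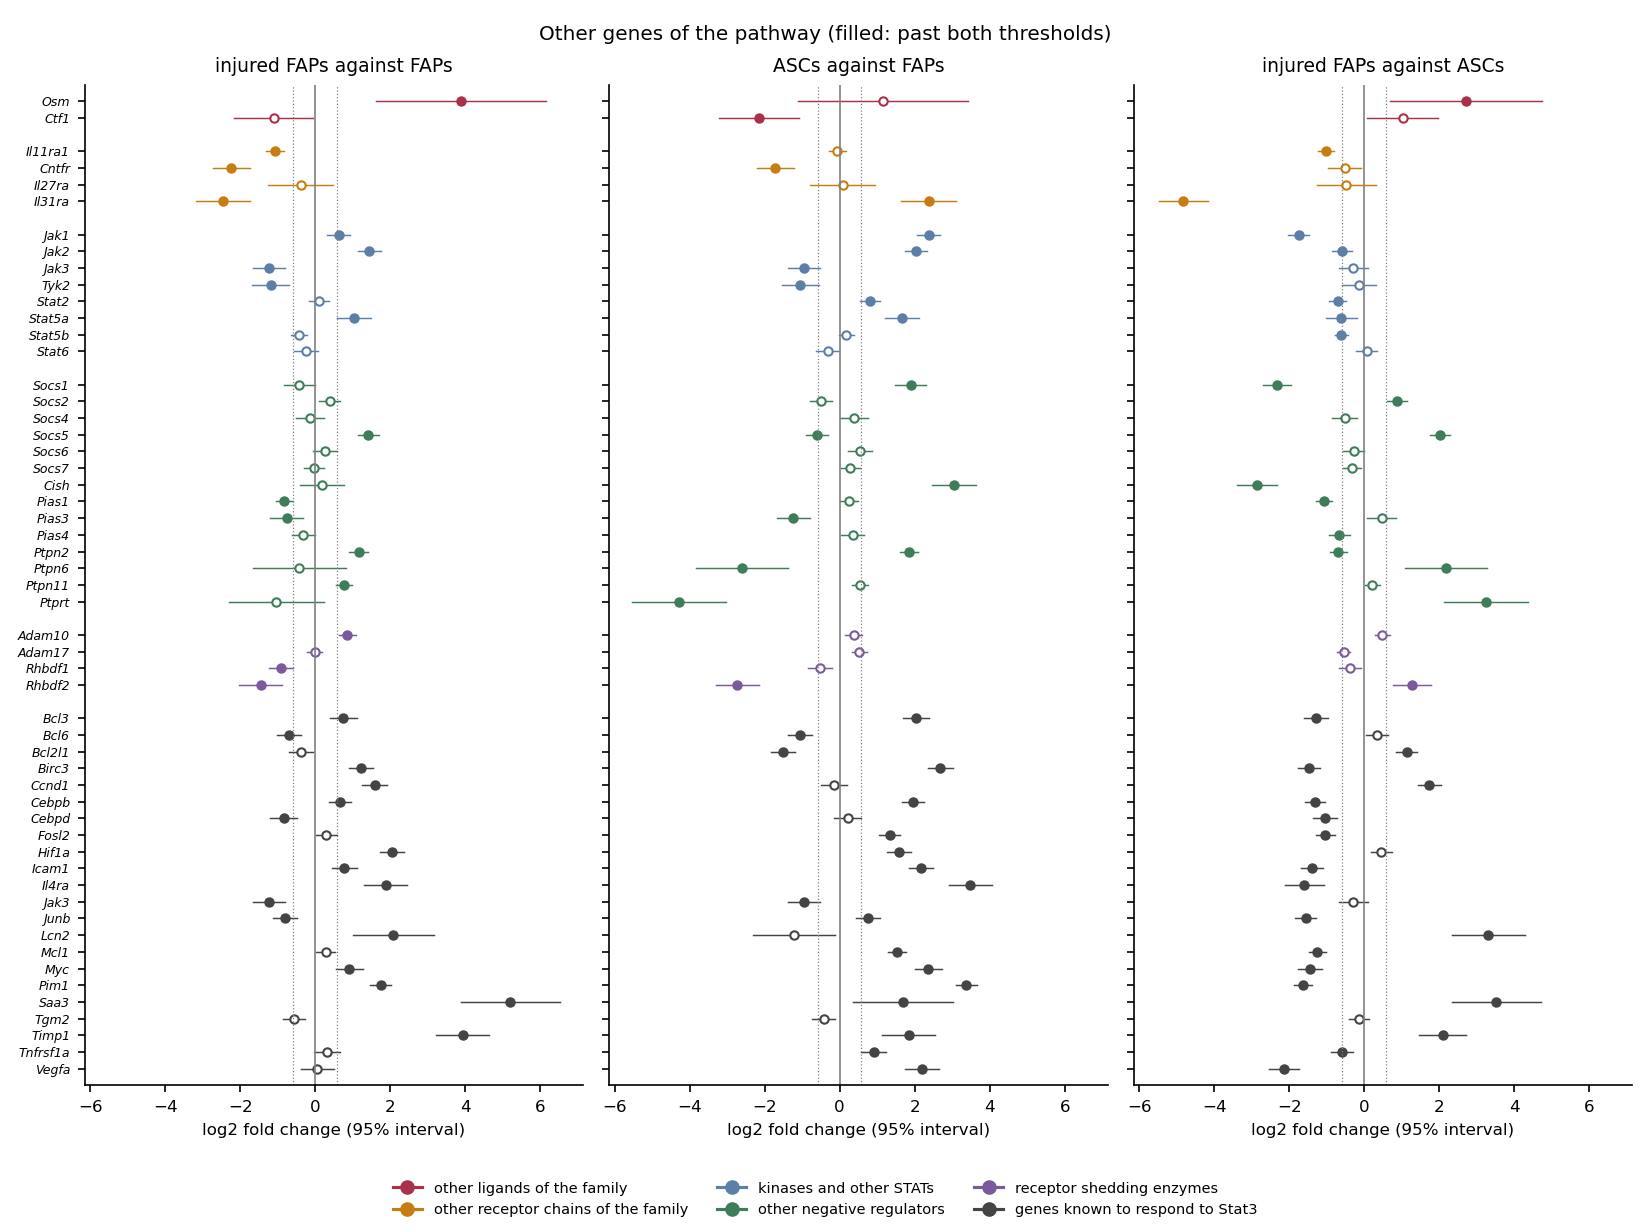
Log2 fold changes with 95% intervals of the tested genes of the other lists in the 3 comparisons, coloured by list, with filled points for genes past both thresholds and dotted lines at the fold change threshold. Il11ra1, Cntfr and Il31ra fell in injured FAPs against FAPs, where 27.7% of all genes tested fell. There 12 of 22 genes known to respond to Stat3 rose, beside 24.9% of all genes tested. Osm passed the filter on low values only through injured FAPs, so its fold changes and calls are not read as a test. Ctf1 passed through FAPs and injured FAPs, so its comparisons with ASCs are not read either.

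In injured FAPs against FAPs, 5 of the 10 members rose (Il6, Lif, Il11, Clcf1 and Osmr) and 1 fell (Lifr), and 7 rose and 1 fell with equal read totals. Among all 13601 genes tested, 52.6% were called in this comparison, 24.9% as higher and 27.7% as lower, so the share of members called, 6 of 10, is close to that of genes in general. The median log2 fold change of the members was 0.82, beside -0.05 for all genes tested. All 4 ligands rose, and of the 4 receptor chains 1 rose and 1 fell.

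In ASCs against FAPs all 10 members were called, 8 as higher in ASCs and 2, Clcf1 and Lifr, as lower. Of all genes tested, 47.2% were called here, 23.4% as higher and 23.8% as lower. The members' median was 1.77, beside 0.00 for all genes. The count was 6 higher and 2 lower with quantile normalization and with equal read totals, where Il6st and Socs3 did not pass.

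In injured FAPs against ASCs, 2 members were higher (Lif and Clcf1) and 5 lower (Il6, Il6ra, Osmr, Stat3 and Socs3), while 50.8% of all genes tested were called, 25% as higher and 25.8% as lower. The members' median was -0.42, beside 0.02 for all genes. This balance depended on the scaling, with 4 members higher and 2 lower with equal read totals, and 3 higher and 2 lower with quantile normalization, where the median was 0.04. Scaling to equal read totals, chosen after seeing the data, moved the median of all genes by 0.13 in injured FAPs against FAPs, where Socs3 changed sign, by -0.56 in ASCs against FAPs and by 0.69 in injured FAPs against ASCs, where the members' median turned to 0.28 and Il6 and Il6st changed sign. A common 75th percentile moved it by -0.21 in ASCs against FAPs and by 0.11 in injured FAPs against ASCs, with no change of sign for a member.

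**Figure D5:**
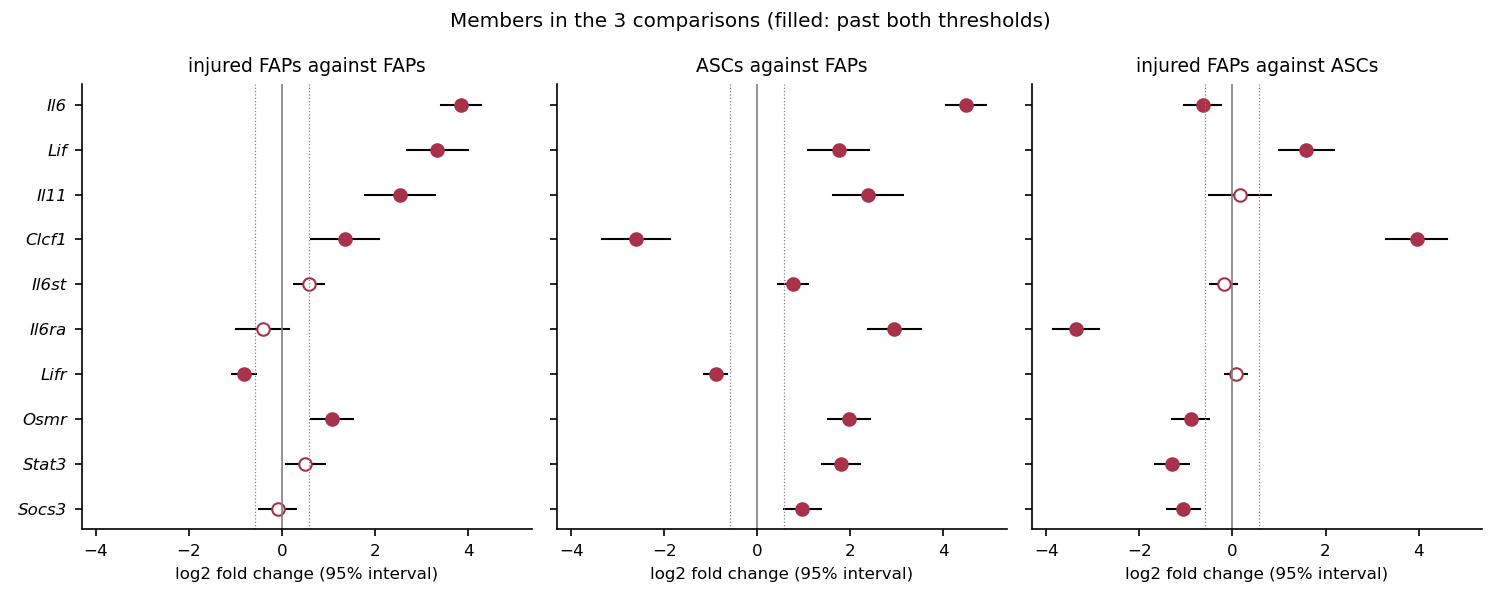
Log2 fold changes of the 10 members with 95% intervals in the 3 comparisons, with filled points for members past both thresholds and dotted lines at the fold change threshold. Il6 is at 3.84 in injured FAPs against FAPs and at 4.49 in ASCs against FAPs, and Socs3 is at -0.09 in the former; the sign of Il6 in injured FAPs against ASCs (-0.64) turns with quantile normalization and equal read totals.

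Levels of different members can be compared only per length, here as normalized read count per kilobase of exon. On this per kilobase scale Socs3 was the highest member in every group, at 25089 ± 3433 in ASCs, 12871 ± 2334 in FAPs and 12041 ± 1631 in injured FAPs (mean ± SD). Il6 was the second member per kilobase in ASCs, at 7537 ± 1246, and in injured FAPs, at 4809 ± 623, but only the fourth in FAPs, at 340.3 ± 101.46. Il6st per kilobase was at 2221 ± 333 in ASCs, 1302 ± 149.6 in FAPs and 1939 ± 168 in injured FAPs. In FAPs it was thus second to Socs3 per kilobase, and its values were above those of Stat3, at 460.1 ± 51.7, without overlap.

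Among the ligands per kilobase, Lif came after Il6 in injured FAPs, at 1584 ± 72.8, and Clcf1, at 225 ± 11.04, overlapped with Il11, at 174 ± 46.3. In FAPs the levels of Lif, 158 ± 29.7, and Osmr, 163 ± 28.3, were within their spread per kilobase. Of 6 chains compared per kilobase in FAPs, Il11ra1 was at 1744 ± 40.1, Cntfr at 887 ± 128, Osmr as given, Lifr at 100.95 ± 3.62, Il6ra at 39.1 ± 3.39 and Il31ra at 16.6 ± 4.49. Per kilobase in injured FAPs, Il11ra1 was at 833 ± 39.9, Osmr at 339.5 ± 18.0, Cntfr at 189.8 ± 33.5, Lifr at 57.3 ± 1.94, Il6ra at 29.4 ± 4.17 and Il31ra at 2.86 ± 0.459, so that Osmr and Cntfr had changed places in the order.

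For 3 members the genes of most similar pattern were sought among 10593 tested genes with a mean of at least 100, by Pearson r of log2(value + 1) over the 8 tested libraries. These libraries fall into 3 groups, so r describes the order of the groups and is given with no p. For Il6 they were the chemokine genes Cxcl1 (r = 0.999), Ccl7 (0.997) and Ccl2 (0.996). Cxcl1 had group means of 95285 in ASCs, 3901 in FAPs and 56183 in injured FAPs, the same order as Il6. For Lifr they were Zfp764 (0.991), Zfp74 (0.989) and Ptp4a3 (0.988), and Ptp4a3 was at 12753 in the CD31+CD45+ library against 1513 in FAPs. For Socs3 they were Cnksr3 (0.988), Tm2d2 (0.987) and Enox2 (0.985).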

How the data were processed

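RNA of 9 libraries was sequenced. The authors used fastq_illumina_filter 0.1 for filtering, FastQC 0.11.9 for quality, HISAT2 2.2.1 for alignment to mm10, Subread 2.0.1 (featureCounts) for counting and DESeq2 1.34.0 for testing. The deposited values are a signal per gene and library, in a table of normalized counts. How multi-mapping reads were treated, and the strand setting of the counting, are not given in the sources used here. In every library 100% of the values were whole reads over a size factor, within 0.01, and size factors ran from 0.637 to 1.31. The table has 2 empty columns, and 6684 of its 26214 genes are at 0 in every library.

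The members and lists were chosen with earlier results of these data known. Named are all 10 members, genes of the lists that passed in a comparison described, and for Il6, Lifr and Socs3 the 3 genes of highest correlation. Adam17, Ebi3 and the low ligands were named with their values in view. Of the planned lists, 2 genes are not reported here, and the counts of their lists leave them out. The lists of cell markers were mesenchymal progenitor, endothelial, leukocyte, satellite cell, muscle fibre, smooth muscle and pericyte, Schwann cell and adipocyte.

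Log2(value + 1) was fitted with limma 3.58.1 in R 4.3.3, with a mean for each of 3 groups over 8 libraries, a trend in the prior variance, 5 residual degrees of freedom and Benjamini-Hochberg adjustment. The 13601 genes tested had means of 10 or more. The pseudocount of 1 makes fold changes of low genes too small on this scale, and fold values are ratios of group means. The CD31+CD45+ library enters no test. Counting limits cover counting error only. The exact permutation tests were two-sided over libraries. On recovered reads edgeR 4.0.16 and DESeq2 1.42.0 called 7303 and 7227 genes for injured FAPs against FAPs. The numbers were 6450 and 6412 for ASCs against FAPs, and 7000 and 6865 for the comparison of injured FAPs with ASCs. Alternatives were a pseudocount of 0.5 or 8, no filter or a mean of at least 50, quantile, 75th percentile and equal read total scaling, a replicate term, only the groups compared, adjusted p alone, and each library left out. Locations and exon lengths are from GENCODE M21 (GRCm38), and promoters from RefSeq. The authors counted reads on a UCSC annotation of mm10. The exons behind the values per kilobase and the shared exon bases may thus differ from those counted. Python 3.11.15, numpy 2.4.6, pandas 2.3.3, scipy 1.17.1 and matplotlib 3.10.9 were used.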

Additional observations from a re-analysis of the deposited data

Results flagged for a closer look

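Lifr was at 4184 in the CD31+CD45+ library, which no comparison uses, above the highest library of mice injected with NaCl, FAP replicate 1, at 1115. It was listed because a value outside the comparisons exceeded those of the control libraries. The library has no replicate, and the difference was not tested.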

How the results depend on the processing

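Of the alternative values of the members' log2 fold changes, 566 kept their direction and their side of the thresholds, 11 changed sign, 11 kept their sign but no longer passed, and 12 passed where they had not. The cause of these changes was not tested. Some alternatives cannot change a member's log2 fold change. These are another filter, only the groups compared, adjusted p alone and leaving out a library of the group not compared. Their agreement in direction was fixed in advance, so the count of 566 does not measure how stable the directions are. In injured FAPs against FAPs, Socs3 was 0.29 with quantile normalization, 0.0386 with equal read totals and 0.0934 without FAP replicate 1, the highest of -0.28 to 0.09 with a library left out. In ASCs against FAPs, Il6st was -0.0034 with quantile normalization. In injured FAPs against ASCs, Il6 was 0.0493 and 0.0560, and Il6st 0.62 and 0.51, with quantile normalization and equal read totals. There Socs3 was 0.11 with quantile normalization, and Il11 was -0.0899 without ASC replicate 3, -0.0256 when injured FAP replicate 3 was left out and up to 0.52 without another library.

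Scaling to equal read totals, chosen after seeing the data, moved the split of genes called as higher and lower from 3183 and 3233 to 1594 and 6317 in ASCs against FAPs, and from 3405 and 3504 to 7377 and 1692 in injured FAPs against ASCs. With a library left out, 6323 to 7358 genes were called in injured FAPs against FAPs, 5653 to 6683 in ASCs against FAPs and 6582 to 7190 in injured FAPs against ASCs. The members called were 6 to 7, 10 in each case, and 6 to 7. With FAP replicate 1 or 2 left out, the remaining FAP library is assumed to vary like the other groups.

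With a replicate block in the fit, 7046, 6287 and 6861 genes and 7, 10 and 7 members were called, in the same order of comparisons. The ratios of Osmr to Lifr and of Il6ra to Il6st kept their direction with each alternative. Without a library, the Osmr to Lifr difference was 1.74 to 2.03 in injured FAPs against FAPs, 2.65 to 3.004 in ASCs against FAPs and -1.10 to -0.76 in injured FAPs against ASCs. The Il6ra to Il6st difference was -1.10 to -0.86, 1.99 to 2.35 and -3.34 to -2.99. FAPs had 2 libraries, so calls against them rest on the spread pooled over the groups.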
